A study of Mus musculus with 24 samples.

Results

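Myb encodes the transcription factor MYB, and its RNA was mapped here in MEL cells by protein interaction profile sequencing (PIP-seq). The sites described are all protein-protected sites (PPSs) that overlapped the Myb gene body on its own strand by at least 1 nt. There were 80 of them among 460777 PPSs in all, with 61 of 138689 at day 0, 16 of 169575 at day 2 and 3 of 152513 at day 4. Myb was chosen by its number of sites per day in these same lists, so the changes between days are given as a description with no test. With 2 replicates per day, a two-sided exact permutation test of a later day against day 0 could not go below p = 0.333.

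MEL cells are a mouse erythroleukaemia line arrested as proerythroblasts, and 2% DMSO starts their erythroid differentiation. Cells were collected untreated (day 0) and after 2 or 4 days in DMSO, as 2 biological replicates each, and all were crosslinked with formaldehyde. A footprinting library was digested with RNase while proteins were still bound, and a structure-only library was stripped of protein before digestion. Each kind was made with an RNase for single-stranded RNA (ssRNase) and with an RNase for double-stranded RNA (dsRNase), which gave 24 libraries in 12 groups of 2. A PPS is a stretch enriched in the footprinting over the structure-only library. A PPS names no protein, and sites of 20 to 40 nt can also be ribosome footprints. The label of the cells fitted the lists, since all 8 erythroid markers examined had sites on at least 1 day. Slc4a1 had them at day 4 only. The T cell, B cell, myeloid and fibroblast markers had none on any day. Of 3 megakaryocyte markers, Itga2b and Pf4 had sites and Gp9 had none. Itga2b had 44, 55 and 64 sites on days 0, 2 and 4. Tfrc, the erythroid marker with the most, had 49, 66 and 67. The presence of sites thus did not set erythroid cells apart from megakaryocytes.

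MYB binds DNA and drives the proliferation of immature blood cells. Its level drops as erythroid cells mature, and keeping it high is known to hold MEL cells back from differentiating. Myb RNA is controlled at several steps. Transcription can stop within intron 1 before a full message is made, and the 3′ UTR is a known target of several miRNAs.

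Myb lies at chr10:21124935-21160984 on the minus strand of mm10 (ENSMUSG00000019982.15 in GENCODE M21). Its 2 coding transcripts use 16 exons, of which exon 10 belongs to Myb-203 only. Together these exons span 3772 nt, with 2265 nt of coding sequence (CDS), 266 nt of 5′ UTR and 1241 nt of 3′ UTR. Intron 1 spans 4238 nt and intron 15, the longest, 13003 nt. Short stretches of the gene that carry the results are given on the RNA strand, 5′ to 3′, as read from the GRCm38 genome. In exon 3 (chr10:21154696-21154725) and exon 5 (chr10:21152483-21152512), capitals mark the bases that lay inside a PPS on all 3 days, sites of every length included. The day 2 site in exon 3 was 23 nt long, within the size range of ribosome footprints, and without such sites exon 3 was not covered at day 2. Both stretches encode parts of the Myb repeats, the DNA-binding domain near the start of the protein. At the end of intron 1 (chr10:21156458-21156487), capitals mark the bases inside a day 0 PPS, which stopped just short of the AG that ends the intron. The stretch from the other end of intron 1 (chr10:21160594-21160623) opened a second day 0 PPS. At the ends of exons 8 (chr10:21148317-21148346) and 9 (chr10:21146171-21146200), capitals mark the exon and lower case the intron, and the whole of each stretch lay inside a PPS at day 0.
Exon 3, protected on all days: aacggaaCAGACGACTGGAAAGTCattgcc
Exon 5, protected on all days: gAGGACAGAATCATTTACCAGGCACACAAg
Intron 1, last 30 nt: GCCCATGTGTGTCCATTCTTATTTCtgcag
Intron 1, start of the 5′ site: ATGCCTTCCCTGTTGGTTTGCGGGGCTGTC
Exon 8 donor: CAGCAGGCATTACCAgtaagactgttacct
Exon 9 donor: CAGTTTATAGATTCTgtaagtagaattgct

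The number of PPSs on Myb fell on both days after DMSO. At day 0, 43 sites held a call of replicate 1 and 30 a call of replicate 2. At day 2 each replicate had 9, and at day 4 the numbers were 3 and 0. Neither later day overlapped day 0. Split by RNase, the ssRNase libraries of day 0 gave 29 and 19 sites and the dsRNase libraries 20 and 14. The ssRNase libraries gave 6 and 5 at day 2, where the dsRNase libraries gave 4 each. At day 4 all sites came from dsRNase replicate 1, and the 3 other call sets had none. Without that replicate no day 4 site was left. The fall was 3.81-fold from day 0 to day 2 and 20.3-fold from day 0 to day 4. Among 1946 genes with at least 20 day 0 sites, 3.29% fell at least 3-fold by day 2 and 3.29% fell at least 10-fold by day 4. The median ratio of day 4 to day 0 sites in these genes was 0.933, against 0.0492 for Myb, and 46 genes had a ratio at or below that of Myb. From PPS lists of bulk cells, less RNA per cell, less protein on the RNA and fewer cells that carry it cannot be told apart. The study also measured mRNA in these samples, and reported that Myb mRNA was significantly lower by the last day sampled than before DMSO. Those mRNA data were not analysed here, so how much of the fall in sites went with the lower mRNA was not tested.

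The lists hold only calls that passed the authors' threshold, so a stretch with no PPS is one with no call. The merged day 2 and day 4 lists were longer than that of day 0, but not every call set was. The ssRNase sets were smaller at day 4, with 53323 and 52539 PPSs against 62202 and 56381 at day 0. The dsRNase sets were larger at day 4, with 66586 and 50594 against 33777 and 40191. At day 2, dsRNase replicate 2 was the smallest set, with 20569. Each merged list was also cut to its 138689 top-scoring PPSs, the size of the day 0 list. Myb then had 61 sites at day 0 and 3 at day 4. The call sets were not cut to an equal size, so whether their size bears on the fall was not tested. Per 100000 minus-strand PPSs, Myb had 102 and 86.9 in the replicates of day 0, 17.6 and 17.3 at day 2, and 5.83 and 0 at day 4. Minus-strand PPSs made up 48.2 to 50.2% of 10 call sets, but 33.1% of ssRNase replicate 2 at day 0 and 56.7% of ssRNase replicate 2 at day 4. Leaving out the sites that rested on those 2 call sets alone, a choice made after seeing the data, left 50 sites at day 0 and 3 at day 4.

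**Figure D1:**
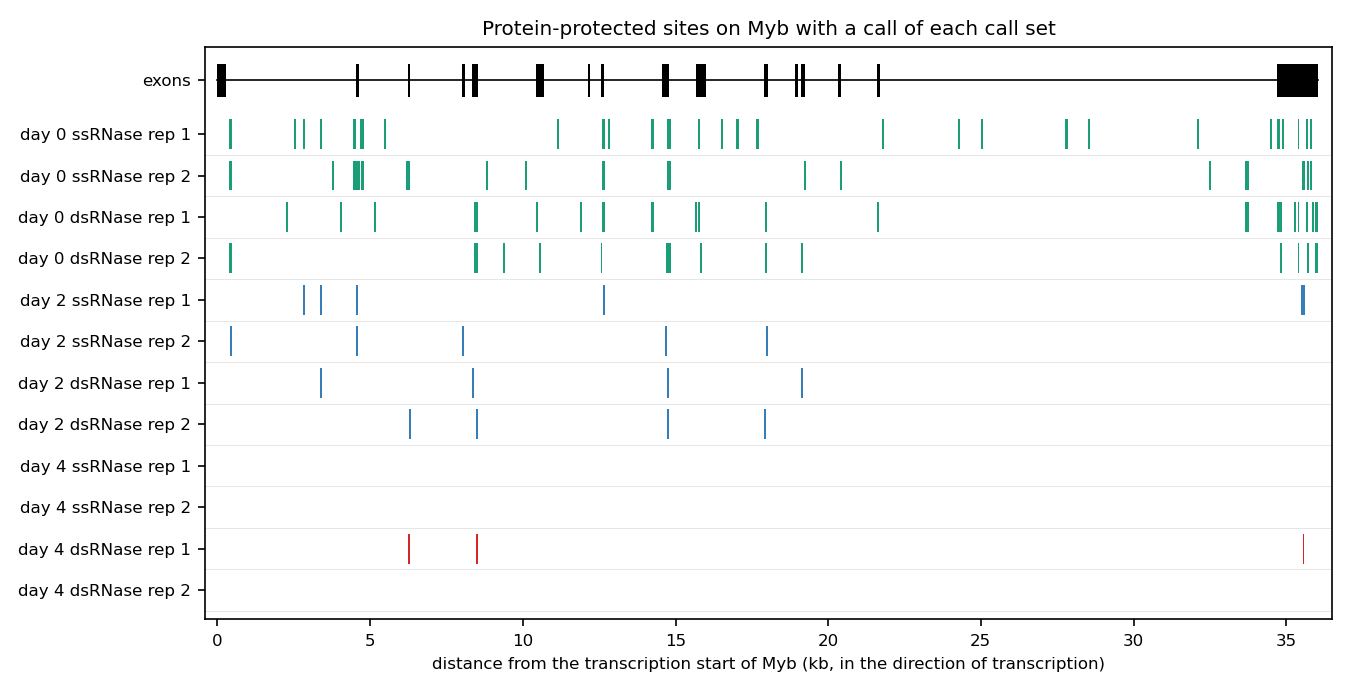
PPSs along the Myb gene, with distance from the transcription start in kb on the x axis and the 12 call sets (day, RNase and replicate) in rows under the exons. Each mark is a PPS that held a call of that set, drawn at least 60 nt wide so that it can be seen. Day 0 sites ran from intron 1 to the 3′ end, and the 3 day 4 sites were all in dsRNase replicate 1.

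At day 0 the sites lay within exons, across exon-intron boundaries and within introns, most densely in exons. Of the 61, 12 lay within the CDS, 1 at the stop codon and 10 in the 3′ UTR. Another 7 crossed an exon-intron boundary, 8 lay in intron 1 and 23 in later introns. No site lay in exon 1, which holds the 5′ UTR, on any day. Per kb, exons held 7.95 sites, intron 1 held 1.89 and the introns after it 1.07, with boundary sites counted for both exon and intron. Intron 15, which accounts for much of the gene's length, held 9 sites or 0.692 per kb. Both replicates were present in 12 of the 61 sites, 10 held calls of both RNases, and 44 rested on a single call. Of those 44, 18 had a score of 5.4, the lowest enrichment score of the day 0 list. The share seen in both replicates was 19.7%, against 26.2% of all day 0 PPSs. The median length of the Myb sites was 57 nt, and that of all day 0 PPSs was 58 nt.

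The RNase behind the day 0 calls varied with the part of the RNA. Of the 23 sites in introns after intron 1, 20 held an ssRNase call and 5 a dsRNase call. Most of those 20 rested on a single call of ssRNase replicate 1. Of the 12 sites within the CDS, 4 held an ssRNase call and 10 a dsRNase call. In the 3′ UTR 7 sites held an ssRNase call and 6 a dsRNase call. Coverage, the percent of bases inside a PPS once sites of 20 to 40 nt were left out, was higher with ssRNase in introns. Intron 1 was covered by 6.61% and 5.62% in the ssRNase replicates and by 1.18% and 2.45% in the dsRNase replicates. In the 3′ UTR the ssRNase replicates covered 12.9% and 14.3%, below the 19.4% and 21% of dsRNase, although the number of sites did not follow that order. In the CDS the RNases overlapped in coverage, at 11.4% and 13.8% with ssRNase and 21% and 10.9% with dsRNase. The ssRNase call sets of day 0 were also larger in all, with 62202 and 56381 PPSs against 33777 and 40191. Whether other genes split in the same way was not tested.

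Exon coverage was lower at both later days, in the CDS and in the 3′ UTR. CDS coverage was 23.8% and 22% in the replicates of day 0, 10.8% and 12.3% at day 2, and 5.03% and 0% at day 4. The 3′ UTR, where many regulators of stability bind messages, was covered by 28.3% and 29.7% at day 0. At day 2 it was covered by 3.55% and 0%, and at day 4 by 4.67% and 0%. The day 2 and day 4 values of the 3′ UTR overlapped, while each lay below both day 0 values. Over the exons of all annotated transcripts, 8933 nt with the retained-intron forms included, coverage was 15.0% and 10.8% at day 0. It was 3.22% and 3.12% at day 2 and 1.93% and 0% at day 4. For the merged day lists, which hold every call, the values were 18.9%, 4.97% and 1.93%, a change of -13.9 percentage points by day 2 and -16.9 by day 4. Set against each day 0 replicate in turn, the later replicates differed by -11.9 to -7.58 at day 2 and by -15.0 to -8.88 at day 4. Lower coverage in both later replicates than in both day 0 replicates was seen in 30.5% of 9497 genes at day 2 and in 25.4% at day 4. A fall as large as that of Myb was seen in 3.62% of them at day 2 and 2.15% at day 4. Over the exons of all transcripts, Myb missed a stricter mark, a fall of at least 10 points in all 4 pairs. That mark was met by 2.6% of genes at day 2 and 2.33% at day 4. Over the exons of its 2 coding transcripts alone, the later replicates of Myb differed by -16.2 to -15.4 at day 2. At day 4 they differed by -23.6 to -18.5, and this measure was not set against other genes.

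**Figure D2:**
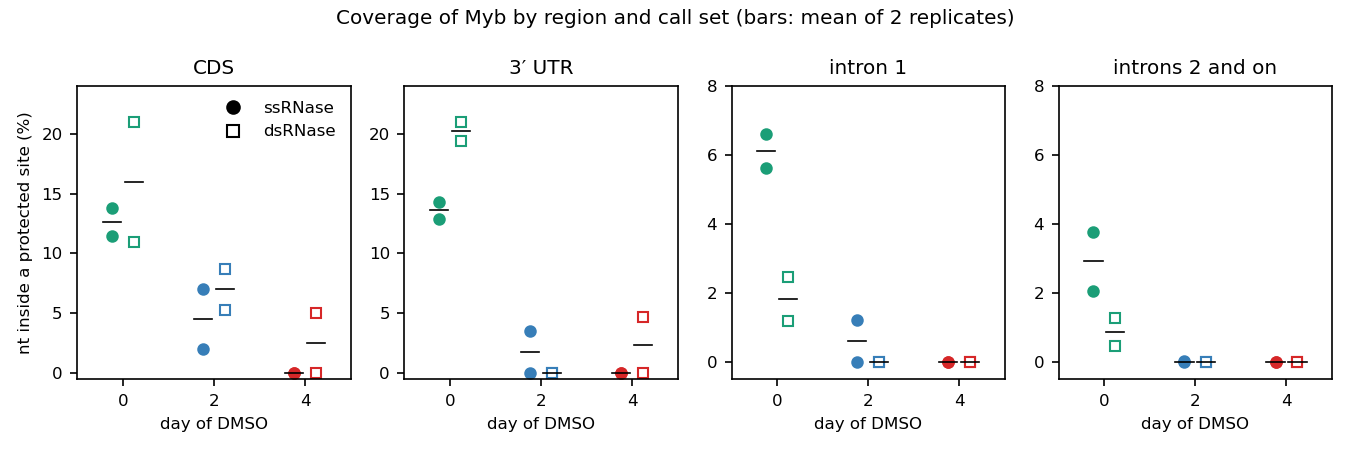
Percent of bases inside a PPS (y axis) by day of DMSO (x axis) for 4 regions of Myb, with filled circles for ssRNase, open squares for dsRNase and a bar at the mean of 2 replicates. PPSs of 20 to 40 nt are left out, and the intron panels have a shorter axis. At day 2 the 3′ UTR lay between 0% and 3.55% and the CDS between 2.03% and 8.74%.

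Intron 1 held 8 PPSs at day 0. The strongest, with a score of 22.98, covered chr10:21156463-21156532 and ended 5 nt before exon 2. It held ssRNase calls of both replicates and no dsRNase call. The other strong site, chr10:21160520-21160623 with a score of 22.06, began 72 nt after the start of the intron and held calls of both ssRNase replicates and of dsRNase replicate 2. The score is the enrichment that the authors gave each PPS. The median score over all day 0 PPSs was 6.82, and scores of merged calls appear to be summed. The 6 other sites of the intron rested on 1 call each and scored 5.4 to 8.39.

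At day 2 intron 1 still held 3 PPSs, and each overlapped a day 0 site. They lay at chr10:21160531-21160581 within the strong 5′ site, at chr10:21158136-21158169, and at chr10:21157602-21157636. The last of these held 2 calls, 1 of each RNase, and scored 13.54. The day 0 site at the same place held 1 call and scored 5.4, so these scores are not like for like. The sites at chr10:21158136-21158169 and chr10:21157602-21157636 were 34 and 35 nt long and so do not count in the coverage below. The site at the 3′ end of the intron had no overlap at day 2. No PPS lay wholly in a later intron at day 2, where there had been 23 at day 0, and no intron held a PPS at day 4. Coverage of intron 1 by replicate was 7.79% and 5.62% at day 0, 0% and 1.2% at day 2, and 0% in both at day 4. In the introns after it, coverage was 4.67% and 2.28% at day 0, 0% and 0.0143% at day 2, and 0% at day 4. Runs of T in intron 1 are of interest because a T run follows the known stop of transcription. Intron 1 had 1 run of 10 or more, 11 nt long and 3677 nt from the transcription start. It lay inside no PPS, and the nearest day 0 site was 70 nt away.

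Among the later introns, intron 2 was the most densely marked at day 0, with 5 sites that touched it and 16.6% of its bases covered. The second strongest site of the gene lay deep in intron 15, at chr10:21127211-21127330, and scored 26.04 with 2 calls of ssRNase replicate 2 and 1 of dsRNase replicate 1. That site had no overlap on a later day. No day 0 site touched introns 3, 4, 7, 11 or 12.

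Of the 7 boundary sites of day 0, 4 crossed a donor, where an exon ends, and 3 an acceptor, where the next exon begins. The 2 strongest crossed the donors of exons 9 and 8, whose sequences are given above. The exon 9 site, chr10:21146118-21146247, had the highest score of any Myb site, 27.04, and held ssRNase calls of both replicates and a call of dsRNase replicate 2. The exon 8 site, chr10:21148303-21148398, scored 21.34 with ssRNase calls of both replicates and a call of dsRNase replicate 1. At day 2 the same exons held PPSs that stayed within the exon. The exon 9 site of day 2, chr10:21146201-21146277, held dsRNase calls of both replicates, and the exon 8 site, chr10:21148338-21148368, held 1 ssRNase call. The only boundary site of day 2 crossed the acceptor of exon 4, which had no PPS at day 0. Exon 10 held 3 day 0 sites, 1 of them across its acceptor, and none on a later day. The donor sites across exons 13 and 14 rested on ssRNase replicate 2, the call set with the low minus-strand share.

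The day 0 sites were set against the lists of the later days. Of 30 sites that touched an exon, 9 overlapped a day 2 PPS and 3 a day 4 PPS. Of 31 wholly intronic sites, 3 overlapped a day 2 PPS and 0 a day 4 PPS. Sites seen in both replicates of day 0 overlapped a day 2 PPS in 5 of 12 cases, and those of a single replicate in 7 of 49. Neither split was made for all day 0 PPSs, so whether it is particular to Myb was not tested. In all, 19.7% of the Myb sites of day 0 overlapped a day 2 PPS, and 4.92% a day 4 PPS. For all day 0 PPSs these shares were 52.8% and 50.6%. Joined over the 3 days, the sites formed 64 regions, of which 49 were seen at day 0 only and 4 at day 2 only. Another 8 were seen at days 0 and 2, and 3 on all days.

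The 3 regions seen on all days were in exon 3, in exon 5 and in the 3′ UTR, and they account for every day 4 site. Those in exons 3 and 5 lay in the part of the CDS that encodes the DNA-binding repeats. In exon 5, the day 0 site (chr10:21152463-21152581) held dsRNase calls of both replicates. The exon 5 sites that overlapped it, chr10:21152484-21152526 at day 2 and chr10:21152446-21152511 at day 4, held 1 dsRNase call each. In exon 3, the day 0 site (chr10:21154693-21154801) held 1 call of ssRNase replicate 2 and crossed the acceptor. The day 2 site (chr10:21154696-21154718) and the day 4 site (chr10:21154702-21154749) lay within the exon and held 1 dsRNase call each. In the 3′ UTR, the sites at chr10:21125378-21125420 on day 0 and chr10:21125380-21125423 on day 2 held 1 ssRNase call each, while chr10:21125390-21125447 on day 4 held 1 dsRNase call. Once sites of 20 to 40 nt were left out, the exon 3 region had no day 2 site. The day 0 sites in exon 3 and the 3′ UTR rested on ssRNase replicate 2 alone, the call set with the low minus-strand share. The day 4 scores were 8.14 in exon 3 and 5.4, the lowest of any list, in the other sites.

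**Figure D3:**
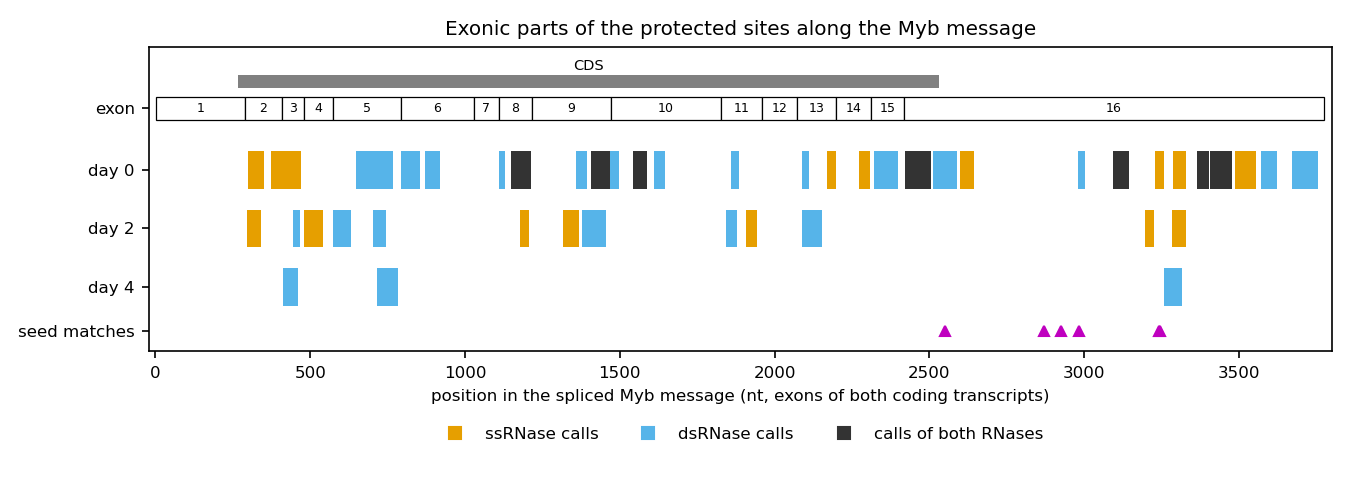
Exonic parts of the PPSs along the spliced Myb message, with position in nt on the x axis and the days in rows. Colours give the RNase of the calls, the exon boxes are numbered, the grey bar is the CDS, and triangles mark matches to the miRNA seeds that were searched. Exon 1 is empty on all days, exon 16 lost most of its sites by day 2, and the 3 day 4 sites lie under day 0 and day 2 sites.

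The 3′ UTR held 10 PPSs within it at day 0, and another covered the stop codon. The strongest, chr10:21125564-21125613, scored 22.37 with dsRNase calls of both replicates and a call of ssRNase replicate 1. The site nearest the end of the message, chr10:21124953-21125035, held dsRNase calls of both replicates. Those 2 and a site with ssRNase calls of both replicates, chr10:21125154-21125218, were the UTR sites seen in both replicates. None of the 3 overlapped a PPS of a later day. The bases of the 3′ UTR inside day 0 sites were 23.1% G and 25.4% A, and those outside were 15.3% G and 34.1% A.

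Several miRNAs that are known or proposed to act on Myb were set against these sites. Of 13 names searched, 12 matched mature sequences of RefSeq and the other was miR-150-5p. The seed, bases 2 to 8, is in capitals for a member of each family with a match. The miR-15 and miR-16 family (miR-15a, miR-15b, miR-16, miR-195a and miR-322) shares a seed, miR-103 shares one with miR-107, and miR-200b shares one with miR-200c and miR-429.
miR-16-5p: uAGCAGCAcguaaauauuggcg
miR-103-3p: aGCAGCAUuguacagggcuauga
miR-155-5p: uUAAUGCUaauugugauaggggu
miR-200b-3p: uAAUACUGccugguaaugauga

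The matches in the 3′ UTR follow, each as 28 nt of genome sequence on the RNA strand with the bases that pair with the seed in capitals. The first lies at chr10:21125460-21125466, the miR-155 matches at chr10:21126152-21126158 and chr10:21125719-21125725, and the miR-200 matches at chr10:21125833-21125839 and chr10:21125779-21125785.
miR-15 and miR-16 family: tagcctgtagtcaTGCTGCTagctagtg
miR-155, near the stop codon: acatttccagaaaAGCATTAtggttttc
miR-155, downstream: aaaaaccaggagaAGCATTAttttgaat
miR-200 family, upstream: ggatacaacagatCAGTATTtttgactg
miR-200 family, downstream: caaagaaatatccCAGTATTccatgtat
The match to the miR-15 and miR-16 family lay inside a 30-nt PPS of day 0 with 1 call, of ssRNase replicate 2, and the miR-103 match overlapped it, shifted by 1 nt. Both miR-155 matches lay inside day 0 PPSs of the dsRNase libraries. The one near the stop codon was in a PPS with calls of both replicates, and the other in a 23-nt PPS with 1 call. The miR-200 family matches lay in no PPS, 106 and 52 nt from the nearest day 0 site. miR-34a had no match of 7 bases. No match lay inside a PPS of day 2 or day 4. Whether a miRNA was present in these cells was not measured, and a match is no evidence that it bound.

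Short words that some RNA-binding proteins favour were counted in the sites on the RNA strand. ATTTA, the core of AU-rich elements, was in 3 of the 61 day 0 sites (4.92%), where 5.94% of all day 0 PPSs of 20 to 130 nt held it. GTGTG was in 5 (8.20%, against 9.54% of all), TTTTTT in 1 (1.64% against 1.48%), AAAAAA in 1 (1.64% against 1.56%) and TGTANATA, the Pumilio word, in 1 (1.64% against 0.881%). None of these shares stood far from that of all sites. Intronic bases inside the day 0 sites were 25.5% G and 29.0% T, and intronic bases outside were 20.9% G and 31.2% T. Over all day 0 PPSs G was 27.0%, above the introns of Myb outside its sites as well.

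The genes on either side of Myb did not share its fall by day 4. The neighbours Hbs1l, which encodes a translation GTPase, and Ahi1, which encodes a cilium protein, are both on the plus strand. No PPS of either strand lay in the 134994 nt between Hbs1l and Myb, where enhancers of Myb are known, or in the 44505 nt between Myb and Ahi1. No PPS lay on the antisense strand of Myb. Exonic coverage of Hbs1l was 9.70% and 11% in the replicates of day 0, 4.33% and 7.09% at day 2, and 17.5% and 17.6% at day 4. Hbs1l had 52, 55 and 53 sites on the 3 days. Ahi1 was sparsely covered, with 0% and 1.35% at day 0, 1.97% and 2.59% at day 2, and 5.34% and 6.12% at day 4. Both neighbours were thus higher in both day 4 replicates than at day 0, which 30.9% of genes were.

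**Figure D4:**
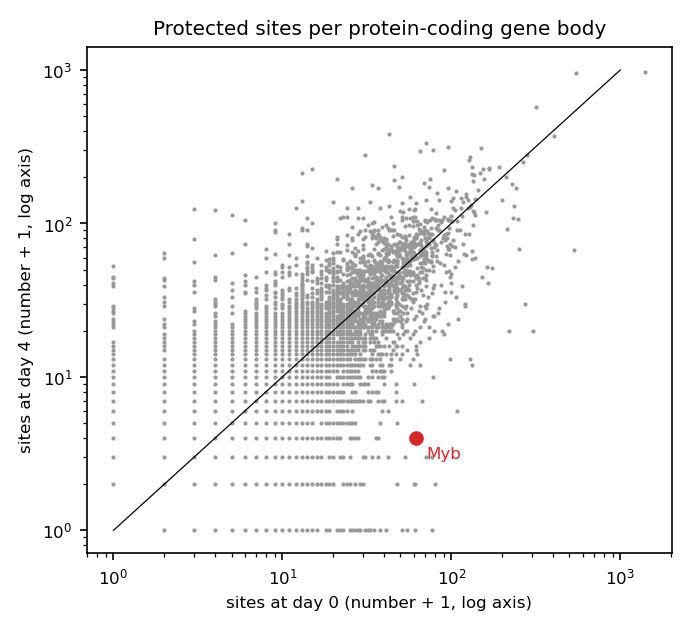
Number of PPSs on each protein-coding gene body at day 0 (x axis) and day 4 (y axis), both as the number plus 1 on a log axis, with each grey point a gene and the line marking equal numbers. Myb, in red, had 61 and 3 sites. Of 566 genes with 40 to 80 day 0 sites, 14 had a day 4 to day 0 ratio as low as that of Myb, and their median day 4 count was 48.

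Of the other Myb family genes, Mybl2, which is used by dividing cells in general, had 14, 15 and 6 sites. Its exonic coverage was 7.99% and 8.57% at day 0, 6.93% and 8.77% at day 2, and 2.33% and 0.907% at day 4. It was thus lower in both replicates at day 4, and overlapped day 0 at day 2. Mybl1, best known from germ cells, had 1, 6 and 0 sites.

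Genes that work with MYB were read against the shares given above for all genes. Of 8 cofactor genes, 4 were lower in both replicates at day 2 (30.5% of all genes) and 3 at day 4 (25.4%), and 1 was higher at day 4 (30.9%). The median change of the list was -0.13 points at day 4. Ppid, which encodes the cyclophilin CYP40, was covered by 42.3% and 40.7% at day 0 and by 19.6% and 11.4% at day 4. Mybbp1a, a nucleolar MYB-binding protein, fell from 19.6% and 19.7% to 7.24% and 7.81%. Men1, whose product menin bridges MYB and the MLL complex, fell from 11.2% and 12% to 0% and 3.52%. Crebbp, a histone acetyltransferase that MYB recruits, was the gene that was higher, at 2.02% and 1.52% on day 0 and 7.78% and 8.05% on day 4.

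Of 18 genes reported as MYB targets, 11 had an exonic site, while Kit, Ccna1, Gfi1, Flt3, Cd34, Mpo and Elane had none on any day. Of the 11, 7 were lower and 1 higher at day 2, when 30.5% of all genes were lower and 22.3% higher. At day 4, 6 were lower and 1 higher, against 25.4% and 30.9% of all genes. Their median change was -5.53 points at day 2 and -7.96 at day 4, and the median over all genes was -0.45 and 0. Ccnb1, a mitotic cyclin, was covered by 19.2% and 21.9% at day 0 and by 3.77% and 1.23% at day 4. Lmo2, a bridge protein of blood cell transcription complexes, fell from 31.6% and 36.7% to 16.2% and 13.6%. Mat2a, which makes S-adenosylmethionine, fell from 44.9% and 40.7% to 28.8% and 30.7%. The gene higher at day 4 was Bcl2, which protects cells from apoptosis, with 25.6% and 18.4% at day 0 and 30.4% and 30.3% at day 4.

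Genes for the modification and turnover of the MYB protein were mostly not lower. Of 9, none was lower in both day 4 replicates and 5 were higher, where 25.4% of all genes were lower and 30.9% higher. The median change of 3.53 points was that of Fbxw7, whose replicates overlapped between the days. Pim1, a kinase that binds MYB, was covered by 5.56% and 6.16% at day 0, 14.5% and 14.9% at day 2, and 23.7% and 20.1% at day 4. The kinases Hipk2 and Nlk, which act together to mark MYB for destruction, were higher at day 4 as well. Hipk2 went from 5.4% and 4.24% to 16.5% and 12.7%, and Nlk from 1.84% and 2.29% to 8.79% and 7.51%. Fbxw7, the F-box protein that binds the marked MYB, was covered by 5.15% and 7.0% at day 0 and by 7.37% and 4.98% at day 4.

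**Figure D5:**
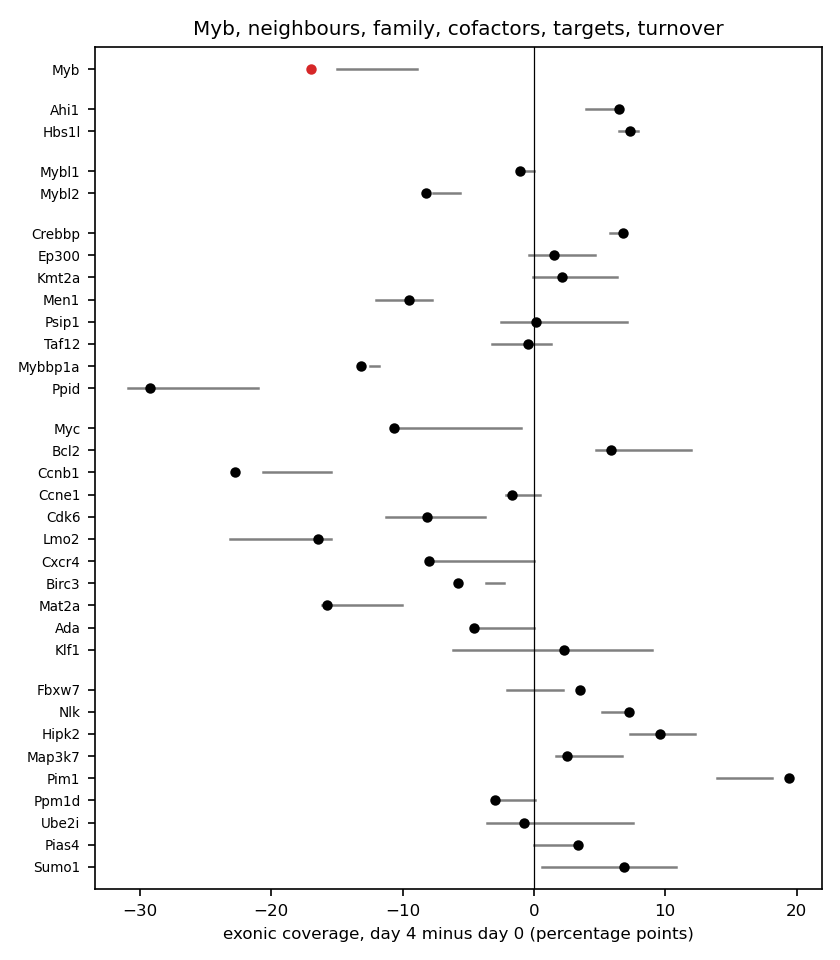
Exonic coverage at day 4 minus that at day 0, in percentage points (x axis), for Myb and the genes of each list that had an exonic site (y axis, in blocks). Points give the merged day lists and lines the range over the 4 pairs of replicates, which can lie beside the point because the merged lists hold more sites. Myb, in red, changed by -16.9 and only Ppid and Ccnb1 changed by more downwards.

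The genes whose exonic coverage was most like that of Myb over the 12 call sets were found by Pearson's r among 4833 genes, as a description. The call sets of a day share merged coordinates, so they are not 12 independent points. Tgfb1, a growth factor gene, was the most alike (r = 0.97), followed by Aqp9, a water and glycerol channel (r = 0.97), Fam111a (r = 0.96), Nudcd2 (r = 0.95) and Rrm2, a subunit of ribonucleotide reductase (r = 0.94). In all, 144 genes reached 0.8. Tgfb1 had 39, 13 and 6 sites on the 3 days, Aqp9 had 25, 1 and 0, and Rrm2 had 18, 9 and 0. The coverage of Aqp9 ran from 6.37% to 8.91% over the call sets of day 0, where Myb ran from 6.46% to 9.52%.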

How the data were processed

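PIP-seq libraries were trimmed with cutadapt 1.2.1, collapsed and aligned to mm10 with TopHat2 2.0.10 by the authors, and PPSs were called with a modified CSAR Poisson test at an FDR of 5%. All calls of a day were merged into 1 deposited list. The deposited score of a PPS is the authors' enrichment value, and how libraries were scaled is not given in the sources used here. Read depth is unknown from the lists, so no interval is given.

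The name field gave the RNase and replicate of each merged call, and thus 12 call sets (3 days, 2 RNases, 2 replicates). A replicate's sites are the PPSs with a call of it. Replicates share merged coordinates, so their spread is understated. PPSs of 20 to 40 nt were left out of coverage, as the study did, and kept in counts. All PPS ends lay inside the GRCm38 chromosomes, and genes were from GENCODE M21. Genes compared were protein-coding with at least 500 exonic nt and an exonic PPS. Genes named were Myb, its neighbours, its family, the 3 of each other list with the largest change by day 4, and the 5 most alike. Bcl2, Crebbp and Fbxw7 were added after their values were seen. Myb and the lists were chosen with earlier results of these data known. Scripts (Python 3.11.15, numpy 2.4.6) were tested on simulated sites. Alternatives covered length, replicate, RNase, score, list size, transcript and single replicates.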

Additional observations from a re-analysis of the deposited data

How the results depend on the processing

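No alternative reversed the direction of the 4 changes that were recomputed, which are the values by which Myb was chosen. Some could not move by construction, such as a day 4 change without a day 2 replicate, or the site count under another transcript. Others could not have been a rise. Intron coverage at day 4 was 0 in every setting. Site count and exonic coverage at day 4 were 0 with both replicates, ssRNase only, scores of 10 or more, or without day 4 replicate 1. The site count changed by -58 by day 4, by -12 with sites of both replicates, by -26 with dsRNase calls only, by -20 with scores of 10 or more, and by -61 to -27 when single replicates were left out. The change of exonic coverage by day 4 was -20.4 points with sites of 20 to 40 nt kept, -6.95 with both replicates, -12.6 with ssRNase only, -10.4 with dsRNase only, -11.1 with scores of 10 or more, -28.7 on the transcript with the longest CDS, and -18.9 to -8.88 without single replicates. By day 2 it was -5.57 with both replicates, -10.3 with ssRNase only, -9.58 with dsRNase only, -9.08 with scores of 10 or more, -21.4 on that transcript, and -15.8 to -5.83 without single replicates. Intron coverage was here taken over the 27117 nt outside the exons of all annotated transcripts, unlike the intron values above. Its change by day 4 was -5.85 points, -1.40 with both replicates, -1.62 with dsRNase only and -1.91 with scores of 10 or more. It was -5.85 to -2.87 without single replicates, and -4.59 without the call sets of uneven strand share, the last chosen after seeing the data. Each such setting leaves fewer or other sites by construction. No paired analysis was possible because the labels do not tie the replicates of different days together, and no test was run on these values.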
